A study of Caenorhabditis elegans with 2 samples.

Results

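The nuclear genes for subunits of the mitochondrial respiratory chain and of the mitochondrial ribosome were examined for regions recovered with eGFP-tagged NHR-76, a nuclear hormone receptor, in Caenorhabditis elegans. The members were chosen by gene symbol: all nuclear protein-coding genes named nuo, cox, atp, ucr, cyc, mrpl or mrps with a number, the sdha to sdhd genes, and gas-1, mev-1, isp-1 and lpd-5. The rule found 112 genes of 19973 nuclear protein-coding genes, of which 42 belonged to the respiratory chain and 70 to the mitochondrial ribosome. By role these were 8 complex I genes, 5 complex II genes, 7 complex III genes, 2 cytochrome c genes, 7 complex IV subunits, 8 complex IV assembly factors, 5 ATP synthase genes, and 41 large and 29 small mitoribosomal subunit genes.

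Chromatin immunoprecipitation with sequencing (ChIP-seq), which recovers the DNA bound by a tagged protein, was carried out on whole L4 larvae, males and females pooled and of age given as unknown. All animals were of strain OP203, which carries the unc-119(ed3) allele and the wgIs203 transgene for the tagged receptor, so the design had 1 group of 2 biological replicates and no untagged or other condition. The labels do not state which promoter or which cells express the transgene, and in whole animals a region bound in few cells cannot be told apart from a region weakly bound in many. The ce11 lists held 319 called peaks (regions whose ranks recurred in both replicates by the irreproducible discovery rate), 13052 pooled regions from both replicates together, 26700 regions of replicate 1 and 24791 of replicate 2. The pooled and replicate lists were deposited as peaks with background, so a listed region is not by itself a binding site. Depth is unknown from these lists, and no control experiment was analysed here.

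The respiratory chain passes electrons from NADH or succinate through complexes I to IV to oxygen and pumps protons, and the ATP synthase uses the proton gradient to make ATP. A few core subunits are made inside the mitochondrion by its own ribosome, while all other subunits and all proteins of that ribosome are encoded in the nucleus and imported. In C. elegans, mutants of gas-1, mev-1, isp-1 and nuo-6 are known for altered lifespan or oxidative stress resistance, and many housekeeping genes lie in operons, where genes on the same strand follow each other closely and share a promoter.

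The 200 bp at the pooled summit are shown for cox-5A, a member with a called peak, and for mrps-7, mrps-12, cox-6A, mrpl-28 and mrps-16, which hold pooled ranks from 574 to 1282. The sequences at atp-1, cox-5B and atp-3, which also rank above mrps-7, are not printed here. They were read from the RefSeq copy of WBcel235 (ce11), 5′ to 3′ on the strand of the gene, and capitals mark a match to GAGAGA on either strand. The positions are chrIII:12905104-12905303 on the plus strand for cox-5A, chrIV:14767775-14767974 on the minus strand for mrps-7, chrV:20837754-20837953 on the plus strand for mrps-12, chrIII:5080866-5081065 on the plus strand for cox-6A, chrII:156040-156239 on the minus strand for mrpl-28 and chrII:5473960-5474159 on the plus strand for mrps-16. All 6 summits lay outside protein-coding genes.
cox-5A: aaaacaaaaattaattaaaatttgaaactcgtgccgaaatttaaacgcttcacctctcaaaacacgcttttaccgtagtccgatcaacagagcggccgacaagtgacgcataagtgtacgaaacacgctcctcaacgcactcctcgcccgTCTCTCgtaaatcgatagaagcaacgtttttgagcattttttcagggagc
mrps-7: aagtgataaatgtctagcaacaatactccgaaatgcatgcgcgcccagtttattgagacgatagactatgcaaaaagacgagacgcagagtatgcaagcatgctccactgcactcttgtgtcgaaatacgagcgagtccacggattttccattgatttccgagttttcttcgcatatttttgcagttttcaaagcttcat
mrps-12: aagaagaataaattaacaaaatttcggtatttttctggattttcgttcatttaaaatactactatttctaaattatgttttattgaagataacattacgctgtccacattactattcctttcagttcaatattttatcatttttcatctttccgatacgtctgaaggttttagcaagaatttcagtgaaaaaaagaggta
cox-6A: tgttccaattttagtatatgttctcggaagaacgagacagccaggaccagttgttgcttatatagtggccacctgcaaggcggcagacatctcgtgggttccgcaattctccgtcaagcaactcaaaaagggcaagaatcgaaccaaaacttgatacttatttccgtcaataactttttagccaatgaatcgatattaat
mrpl-28: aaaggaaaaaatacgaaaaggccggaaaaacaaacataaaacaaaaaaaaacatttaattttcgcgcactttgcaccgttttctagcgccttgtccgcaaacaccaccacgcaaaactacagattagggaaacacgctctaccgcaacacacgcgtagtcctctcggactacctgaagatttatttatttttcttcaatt
mrps-16: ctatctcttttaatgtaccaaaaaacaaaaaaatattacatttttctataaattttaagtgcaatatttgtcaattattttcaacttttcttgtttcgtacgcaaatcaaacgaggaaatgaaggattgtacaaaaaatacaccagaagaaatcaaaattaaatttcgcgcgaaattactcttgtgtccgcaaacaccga
The GC content was 43.5% at cox-5A, 42.5% at mrps-7, 42.0% at cox-6A and 39.5% at mrpl-28, and lower at mrps-12 (26.5%) and mrps-16 (28.5%). The number of repeat-masked bases among the 200 ranged from 10 at cox-6A to 115 at mrps-16, with 59 at cox-5A. A GAGAGA match was found at the cox-5A summit and at none of the other 5.

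Each gene's window ran from 1000 bp upstream to 200 bp downstream of its 5′ end, and a gene had a region when the region's summit lay in it. Called summits lay in the windows of 2 members (1.79%), cox-5A and atp-1, against 0.991% of all nuclear protein-coding genes. Listed regions of lower rank were found at many more members: 44 (39.3%) had a pooled region against 21.2% of all genes, 59 (52.7%) a region of replicate 1 against 34.8%, and 53 (47.3%) a region of replicate 2 against 32.3%. Both replicates had a region at 37 members (33.0%, all genes 17.9%), and at 31 of them (27.7% of members, all genes 12.8%) some summits of the replicates lay within 200 bp of each other. In all, 75 members (67.0%, all genes 49.5%) had a region in at least 1 list, 38 had a region in exactly 1 replicate and 37 had none in any list. By count the members' shares lay above those of all genes in the pooled and replicate lists. The called count of 2 is too small to be told from the share of all genes. With 1 group and 2 replicates no condition could be compared, so these counts are descriptions with no test.

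High ranks were few. Ranks follow the deposited signal value, from 1 for the strongest region of a list. The ranks given for a gene are those of its strongest region in each list, and these regions can lie at different positions in the window. The pooled regions with a q-value at or below 0.05 numbered 1141. At that limit 7 members (6.25%) had a region, against 3.35% of all genes, and the same number of members ranked within the strongest 1000 pooled regions, against 3.00%. Within the strongest 1000 of both replicates ranked 3 members (2.68%, all genes 1.40%), namely cox-5A, atp-1 and cox-5B. Replicate 1 alone placed 7 members in its strongest 1000 (all genes 2.83%), and replicate 2 also placed 7 (all genes 2.65%). The replicates had only those 3 members in common: atp-3, mrpl-49, mrps-12 and mrps-16 reached the limit in replicate 1 alone, and cox-4, cox-6A, mrps-7 and ucr-2.1 in replicate 2 alone.

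**Figure D1:**
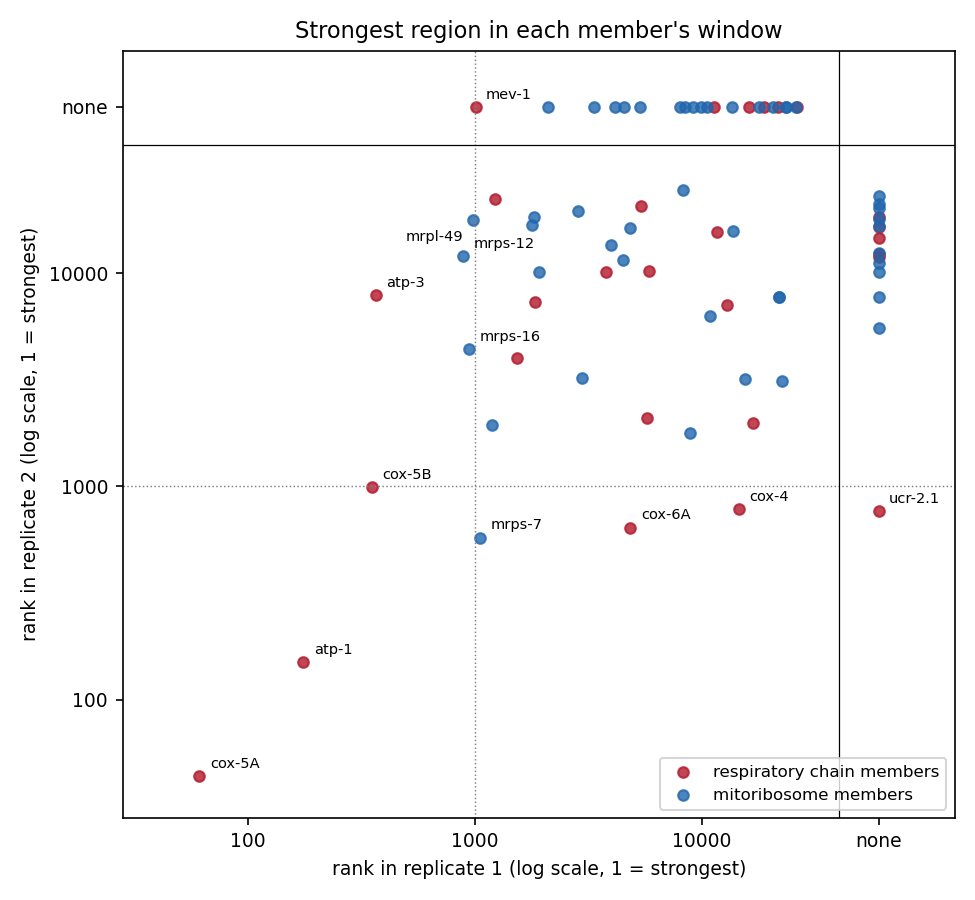
Rank of the strongest region in each member's window in replicate 1 (x axis) and replicate 2 (y axis), both on log scales with 1 the strongest, with the outer strips for members that have no region in that replicate and dotted lines at rank 1000. The lower left corner holds cox-5A, atp-1 and cox-5B, and the other members scatter over both lists or are found in 1 replicate only.

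The median rank did not favour the members in both replicates. Over the 44 members with a pooled region, the best region had a median rank of 2901, or 22.2% of the way down the list, against 36.4% for all genes with a pooled region. In replicate 1 the members' median was 21.4% against 37.5%, whereas in replicate 2 it was 41.0% against 40.5%. The lower median of the members was therefore seen in the pooled list and replicate 1, and replicate 2 placed its regions at members about where it placed those of all genes. These medians cover only members that had a region in the list named.

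Among complex I genes no called summit was found, and 3 of 8 had a pooled region, at ranks from 7996 down. The highest pooled rank, 7996, was at gas-1, which encodes a core subunit on the electron path. Its pooled summit at -527 bp was nearer to the 5′ end of usp-33, whose window holds it too. The gas-1 region ranked 12874 in replicate 1, with its summit at -506 bp. A region elsewhere in the window, at -823 bp, ranked 7082 in replicate 2. At nuo-1, which encodes the subunit that binds NADH, the ranks were 8850, 5385 and 20676. The pooled and replicate 1 summits lay at -191 and -192 bp, but that of replicate 2 at -786 bp. The window of the ribosomal protein gene rpl-36.A shared the pooled summit. At nuo-5, another core subunit gene, the ranks were 12986, close to the end of the pooled list, 11610 and 15502. Their summits lay at -827, -806 and -601 bp. Summits of the replicates within 200 bp of each other were found at 1 of the 8 genes (12.5%, all genes 12.8%). No list had a region at nuo-2, nuo-3, nuo-4, nuo-6 or lpd-5, while the share with a pooled region, 37.5%, was near that of all members (39.3%) and above the 21.2% of all genes. Further complex I subunits carry ndu names outside the rule, and of 25 such genes, a list added after the values were seen, 13 (52.0%) had a pooled region and 3 one at a q-value at or below 0.05. The strongest, nduc-2, ranked 180 in the pooled list and was called at rank 271.

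Complex II, succinate dehydrogenase, had pooled regions at 2 of 5 genes, and each ranked far higher in replicate 1. At sdha-1, the flavoprotein subunit gene, the region ranked 1415 in the pooled list, 1225 in replicate 1 and 22163 in replicate 2, with the pooled summit at -224 bp. At mev-1, which encodes a membrane subunit, the region ranked 3015 in the pooled list and 1005 in replicate 1, and replicate 2 had none in the window. The mev-1 summit also lay in the window of jmjd-4, whose 5′ end was nearer. The second flavoprotein gene, sdha-2, had a region in replicate 1 alone (rank 11281), sdhb-1 in replicate 2 alone (rank 14512), and sdhd-1 in no list.

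Complex III, the cytochrome bc1 complex, had pooled regions at 3 of 7 genes (42.9%, all genes 21.2%). At cyc-1, which encodes cytochrome c1, the region ranked 1576 in the pooled list, 1840 in replicate 1 and 7313 in replicate 2, and the summits lay between -309 and -286 bp. At ucr-2.2, a core protein gene, the ranks were 2482, 1534 and 3987, with the pooled summit at -78 bp. Its paralog ucr-2.1 ranked 2698 in the pooled list and 767 in replicate 2, with no region in replicate 1 at all. The replicates thus differed most at ucr-2.1. The Rieske iron-sulfur protein gene isp-1 had a single region, in replicate 2 at rank 11932 and -468 bp, and ucr-1, ucr-2.3 and ucr-11 had none.

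Of the cytochrome c genes, which encode the carrier between complexes III and IV, cyc-2.1 ranked 1989 in the pooled list, 5813 in replicate 1 and 10200 in replicate 2. All 3 summits lay between +193 and +199 bp, inside an intron of cyc-2.1 and just within the downstream limit of the window. Its paralog cyc-2.2 had only a region of replicate 1, at rank 26204 near the end of that list.

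Complex IV, cytochrome c oxidase, held the strongest region of all members, that of cox-5A (III:12905491-12906619, plus strand), which encodes a subunit of the oxidase. The region ranked 49 in the pooled list with a signal value of 135, 61 in replicate 1 with 71.5, and 44 in replicate 2 with 61.9, and it was called at rank 53 of 319 with 138. The called and pooled region spanned III:12905019-12905388. Both replicates thus placed it close to the top, with summits at -316 and -287 bp, and no other gene's window held the pooled summit.

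The region at cox-5B, another subunit gene, ranked 332 in the pooled list, 352 in replicate 1 and 993 in replicate 2, with summits at -16, -21 and +17 bp. It was not called, although its deposited -log10 q of 2.98 was the highest the pooled list gives, shared with 475 regions in all. Its pooled signal value was 53.8, and pooled signal values did not separate called from uncalled genes. A called summit was found at eef-1A.2, with a pooled value of 54.7, but not at rps-28, with 62.3. At cox-6A the pooled rank was 947 and the replicates' ranks were 4839 and 642. Its summits agreed closely, at -759 to -758 bp, in spite of the difference in rank, and lay farther upstream than at the other highly ranked members. At cox-4 the pooled rank was 1645, with 14528 in replicate 1 and 783 in replicate 2. Thus 4 of the 7 subunit genes had a region in both replicates (57.1%, all genes 17.9%). A region at a q-value at or below 0.05 was found at 3 (42.9%, all genes 3.35%). The remaining subunit genes had a region of replicate 2 at rank 16351 (cox-7C) or none (cox-6B, cox-6C), while a called summit lay in the window of another annotated 5′ end of cox-6B.

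The complex IV assembly factors, which insert copper, heme and subunits into the oxidase, did not share the high ranks of the subunits. Pooled regions were found at 3 of 8 (37.5%, all genes 21.2%), at ranks 3200 for cox-14, 8485 for cox-18 and 12289 for cox-17. At cox-14 the replicates ranked the region 16713 and 1979, and rde-4, which shares the summit, had the nearer 5′ end. The regions at cox-18, an insertase gene, and cox-17, a copper chaperone gene, were found in replicate 1 alone besides the pooled list, at ranks 16069 and 18832.

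Of the 5 ATP synthase genes, 5 had a region in replicate 2 (all genes 32.3%). The pooled list and replicate 1 had a region at 4 (all genes 21.2% and 34.8%). At atp-1 (I:12652277-12654655, plus strand), the alpha subunit gene, the region ranked 146 in the pooled list with a signal value of 77.4, 175 in replicate 1 with 41.5 and 150 in replicate 2 with 34.1. It was called at rank 245 of 319 with 65.3, spanning I:12652089-12652458. The summits lay at -3, -10 and -3 bp, on the annotated gene start, and the window of mcrs-1 held the pooled summit as well.

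At atp-3, which encodes the subunit that confers oligomycin sensitivity, the pooled rank was 488 and the replicate 1 rank 365, but replicate 2 ranked its region 7882, so the high pooled rank was matched by replicate 1 alone. At atp-2, the beta subunit gene, the ranks were 1991, 5710 and 2096, and at atp-4 they were 3529, 3788 and 10158. The replicate 2 summit at atp-2 lay at -483 bp, against -233 bp in the pooled list and -228 bp in replicate 1. Another region of replicate 2 there, at -281 bp, ranked 5530. The last, atp-5, had only a region of replicate 2, at rank 18315. A q-value at or below 0.05 was reached at atp-1 and atp-3.

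The mitochondrial ribosome had fewer regions of high rank than the respiratory chain. Of its 70 genes 24 (34.3%) had a pooled region, 21 (30.0%) a region in both replicates and 2 (2.86%) a pooled region at a q-value at or below 0.05. None had a called summit or ranked within the strongest 1000 of both replicates. The 42 respiratory chain genes had a pooled region at 20 (47.6%), regions in both replicates at 16 (38.1%), a q-value at or below 0.05 at 5 (11.9%) and a called summit at 2 (4.76%). The strongest 1000 of both replicates held 3 of them (7.14%). All genes had a called summit in 0.991%, a pooled one in 21.2% and regions in both replicates in 17.9%. A q-value at or below 0.05 was reached by 3.35% of all genes, and 1.40% ranked within the strongest 1000 of both replicates. The mitoribosomal shares at these 3 high levels, 0 of 70 called, 2.86% at the q-value limit and 0 of 70 in the strongest 1000, cannot be told from those of all genes at this number. Where regions of any rank counted, the groups were alike by count: 52.4% of the respiratory chain and 52.9% of the mitoribosome genes had a region in replicate 1, and 66.7% and 67.1% had one in any list. The differences between the groups were not tested.

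**Figure D2:**
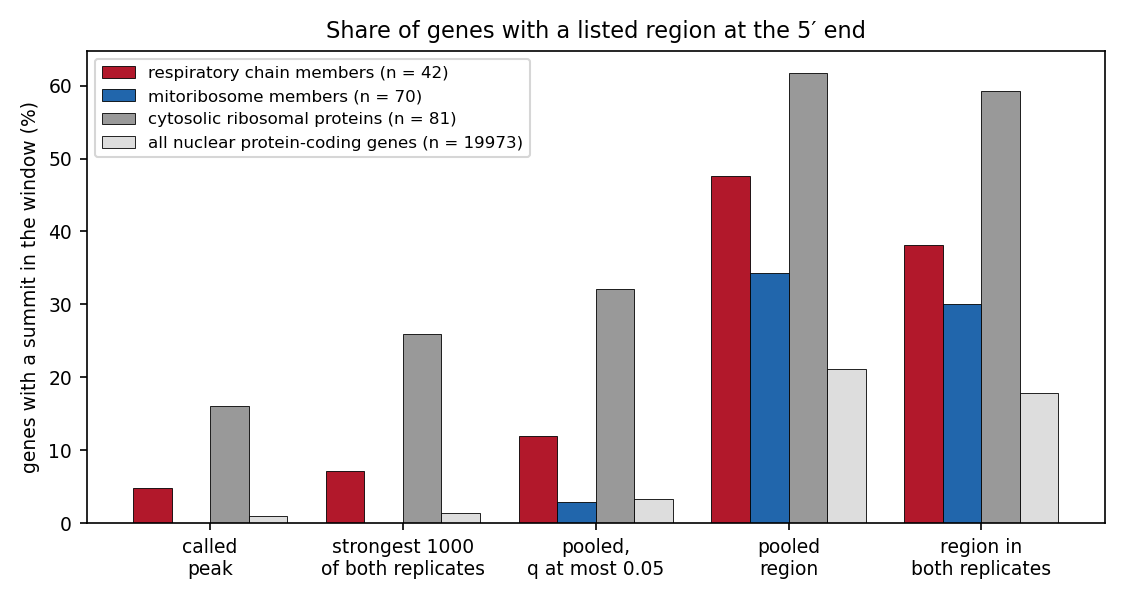
Percent of genes with a summit in the window (y axis) under 5 rules for the 42 respiratory chain members, the 70 mitoribosome members, 81 cytosolic ribosomal protein genes and all 19973 nuclear protein-coding genes. Respiratory chain members stand above the mitoribosome members under the 5 rules plotted, though not in replicate 1 alone or any list (52.4% against 52.9% and 66.7% against 67.1%), and the cytosolic ribosomal protein genes stand above both under these 5.

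In the small subunit, 9 of 29 genes (31.0%, all genes 21.2%) had a pooled region. At mrps-7 the region ranked 574 in the pooled list, 1051 in replicate 1 and 575 in replicate 2, with summits between -154 and -145 bp, the highest of any mitoribosomal gene in the pooled list and in replicate 2. The window of Y57G11C.3 held its pooled summit too. At mrps-12 the ranks were 812, 886 and 12007, and at mrps-16 they were 1282, 940 and 4406. Both of these were stronger in replicate 1.

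In the large subunit, 15 of 41 genes (36.6%, all genes 21.2%) had a pooled region. At mrpl-28 the ranks were 1261, 1182 and 1946, with a pooled summit at -131 bp. At mrpl-55 the ranks were 1802, 1922 and 10088, and at mrpl-23 they were 2372, 1811 and 18312. The pooled and replicate 1 summits at mrpl-23 lay at -963 and -962 bp, but that of replicate 2 at -166 bp. A further region of replicate 2 there, at -991 bp, ranked 23197. Only mrpl-28 of these kept a similar rank in both replicates. Within the strongest 2000 regions of both replicates ranked 5 members, with mrpl-28 and mrps-7 beside cox-5A, atp-1 and cox-5B. The genes mrpl-1 and mrps-24, on opposite strands, shared a single region of pooled rank 5907, whose summit was nearest to the 5′ end of emc-6.

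Where regions were found, they lay mostly a short way upstream. The best pooled summit was upstream of the 5′ end at 41 of 44 members (93.2%, all genes 89.4%) and within 500 bp upstream at 32 (72.7%, all genes 59.0%). Its median position was -185.5 bp with quartiles of -397 and -127 bp, against -296 bp with quartiles of -576 and -120 bp for all genes. Of these summits 31 lay outside protein-coding genes, 7 in their exons and 6 in their introns, and other gene types were not considered. Of those in exons or introns, only the summits of cyc-2.1, mrps-14 and mrpl-37 lay in the member itself. The rest lay in another gene, such as alh-4 for atp-4, fars-1 for mrpl-23 and Y45G12B.2 for nuo-5. In 37 members with regions in both replicates, the best summits of the replicates were a median of 91 bp apart, and 14 were within 50 bp. Another gene's window held the summit at 21 of 44 members (47.7%, all genes 29.9%), and the member had the nearest 5′ end at 37 (84.1%, all genes 84.7%). Summits at members were thus shared with a neighbour more often by count, while the member was the nearest gene about as often as any gene.

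**Figure D3:**
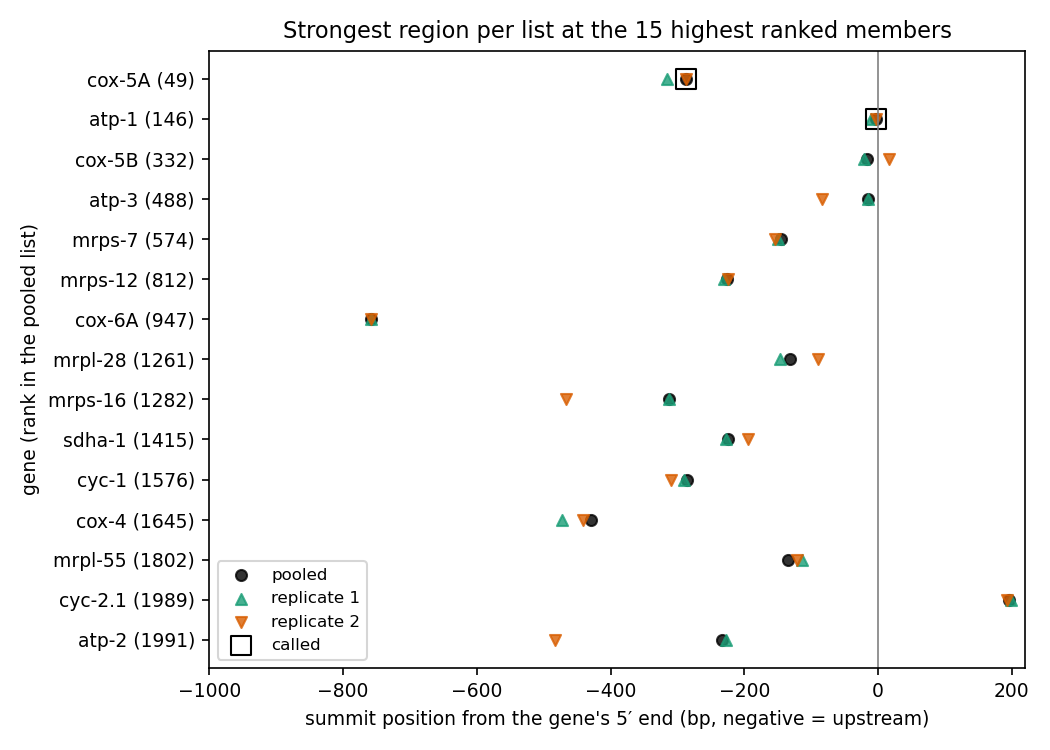
Position of the strongest summit in each list relative to the 5′ end (x axis, bp, negative upstream) for the 15 members with the highest pooled ranks, given in parentheses (y axis); squares mark called peaks. The summits of atp-1, cox-5B and the pooled one of atp-3 sit at the 5′ end, that of cox-6A at -758 bp, and the replicates differ most at mrps-16 and atp-2.

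Some summits lay close to the limits of the window. Just inside the upstream limit were summits at -963 bp of mrpl-23 (pooled rank 2372) and -933 bp of mrpl-9 (rank 10026), and just outside were those at -1028 bp of nuo-5 (rank 6012) and -1041 bp of sdha-2 (rank 8419). Downstream, the summits at +196 bp of cyc-2.1 (rank 1989) and +167 bp of mrps-14 (rank 2654) were inside, and those at +207 bp of mrpl-53 (rank 11523) and +315 bp of mrpl-36 (rank 9859) outside. With a window of 2000 bp upstream, called summits at -1093 bp of cyc-2.1 and -1896 bp of cox-10 came in.

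The base composition at the members' summits was that of other genes, with a median GC content of 34.5% in 200 bp for the 44 members and 34.5% for all genes. The summit base was repeat-masked at 20 of 44 (45.5%, all genes 38.9%). Motifs were searched on both strands from 250 bp before to 50 bp after each gene start and in the 200 bp at each best pooled summit. AGGTCA, the core hexamer of nuclear receptor sites, was found at 4 of 112 gene starts (3.57%, all genes 8.27%) and at 1 of 44 summits (all genes 4.53%), that of mrpl-15. The longer AAGGTCA, which contains it, was found at 0 members' starts (all genes 3.04%) and at 0 summits (1.23%), and TCAAGGTCA, which contains both, was likewise at 0 starts (0.225%). AAGTCA was found at 10 starts (8.93%, all genes 13.3%) and at 2 of 44 summits (4.55%, all genes 8.18%), those of mrpl-55 and nuo-5. The counts of these receptor motifs are small, and no difference from all genes was tested.

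GAGAGA was found at 23 starts (20.5%, all genes 21.8%) and 5 summits (11.4%, all genes 18.4%), those of cox-5A, mrpl-15, mrpl-36, sdha-1 and ucr-2.2. CACGTG, the E-box, was found at 5 starts (4.46%, all genes 5.82%) and TGACGTCA, the cyclic AMP response element, at 1 (0.893%, all genes 1.51%). The palindrome bound by mammalian NRF-1, a regulator of respiratory chain genes, was found at no gene start of any kind. A missing match says only that these letters are not in these windows.

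Many members lay close behind another gene on the same strand. Of 112 members, 44 (39.3%) had a same-strand protein-coding gene that ended no more than 500 bp before their 5′ end or overlapped it, against 20.8% of all genes. The median gap was 106 bp against 141 bp, and 29 of the 44 gaps were 80 to 130 bp. By role this held for 29 of 70 mitoribosomal genes (41.4%), 15 of 42 respiratory chain genes (35.7%), 5 of 8 assembly factors and 0 of 7 complex IV subunit genes. No operon annotation was used, so these runs rest on strand and distance alone.

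For the 44 genes behind another gene, the regions were more often at the first gene of the run than at the member itself. In their own windows 0 had a called summit (all genes so placed 0.673%) and 15 (34.1%) a pooled one (all genes so placed 21.5%). In the window of the run's first gene 4 had a called summit (9.09%, all genes so placed 1.83%) and 24 a pooled one (54.5%, all genes so placed 30.1%). The shares of all genes so placed were thus also higher at the first gene, so this shift is not particular to the members. A pooled region lay only at the first gene for 14, in both windows for 10, only at the member for 5 and in neither for 15. Of the 10 with both, 7 had the higher rank at the first gene, 2 at the member and 1 had the same region in both windows. The window of the run's first gene was added after the values were seen, and the 44 members had 43 different first genes.

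The called summits at first genes stood before cytochrome c, 2 assembly factors and a mitoribosomal protein. The gene cyc-2.1 follows rpl-20, a cytosolic ribosomal protein gene, by 111 bp, and a peak there (IV:4749920-4750289) was called at rank 30. The overlapping regions of the other lists ranked 29 in the pooled list, 28 in replicate 1 and 42 in replicate 2. For cox-11, a copper delivery factor gene, the first gene is lin-54, which lies 2 genes upstream, with a region of ranks 84, 81 and 113 that was called at rank 123 and also lies at rpl-12. For mrpl-32 it is the proteasome gene rpn-3, with ranks of 92, 148 and 71 and called rank 128, in a window shared with hsp-110. For cox-18 it is Y55F3AR.2, with ranks of 95, 94 and 185 and called rank 127, shared with cct-8. All 4 regions ranked within the strongest 200 of both replicates, higher than any region in the windows of these members themselves, and each also lay in the window of at least 1 further gene that is no member.

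Below the called level, ucr-11 had no region of its own, while dad-1, which precedes it by 102 bp, had a region of pooled rank 235 that ranked 319 and 281 in the replicates. Other members with nothing in their own windows followed first genes of pooled rank 465 (mrpl-48 behind vps-37), 563 (mrps-21 behind F29B9.11), 639 (mrps-11 behind W04D2.4), 889 (nuo-4 behind syf-2) and 948 (mrps-2 and mrpl-4 behind natc-1). The run of natc-1, mrps-2 and mrpl-4 thus places 2 members behind a single region, ranked 1894 and 1895 in the replicates. In the run that begins with atp-2, mrps-26 follows prmt-5, and the window of atp-2 held a pooled region of rank 1991 while that of mrps-26 held none. The opposite case also occurred: mrps-12, sdha-1, cyc-1, mrps-14 and nuo-5 had a pooled region of their own and none at the first gene.

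**Figure D4:**
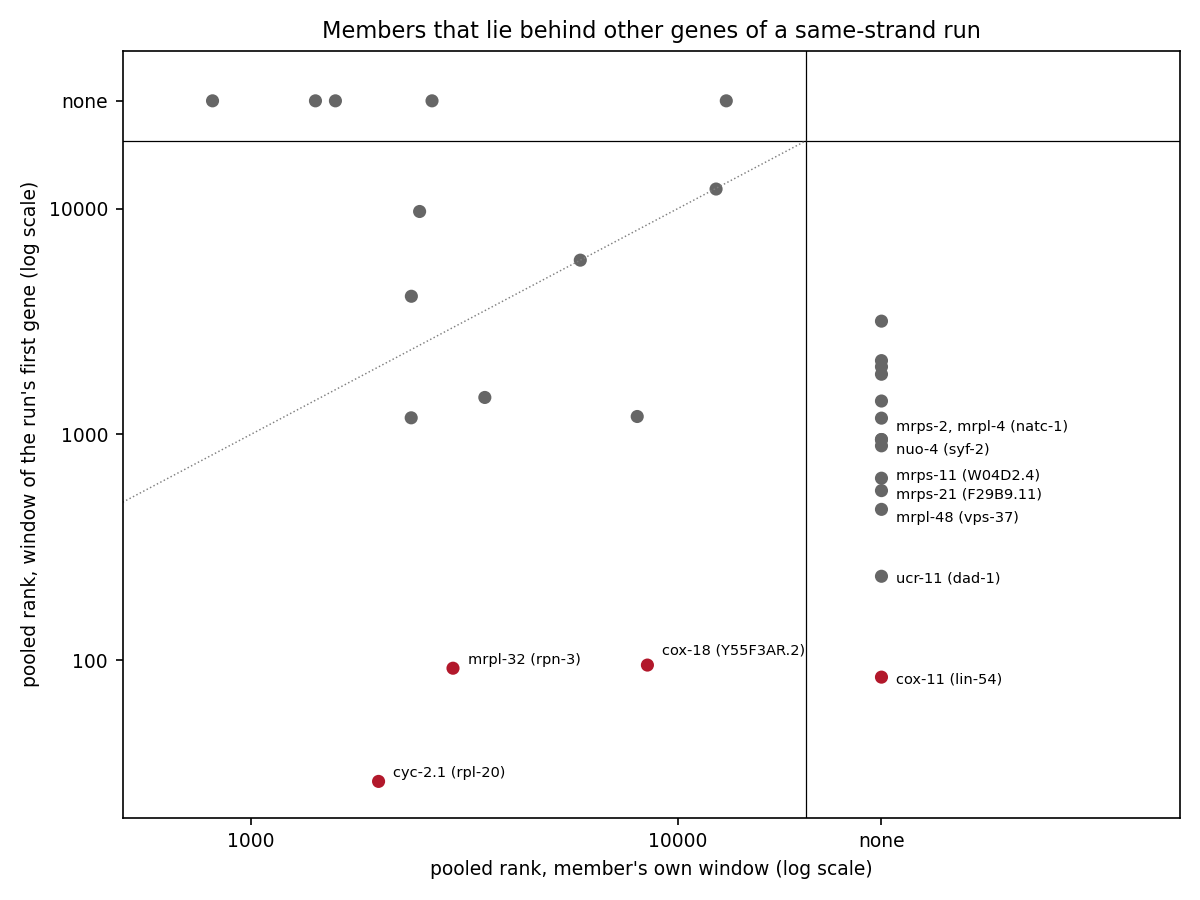
Pooled rank of the strongest region in the member's own window (x axis) and in the window of the first gene of its same-strand run (y axis, named in parentheses), both on log scales with strips for no region, for the 29 of 44 such members with a region in either window. Red points had a called summit at the first gene, and most points lie below the dotted line of equal rank or in the strip with no region at the member.

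With each member represented by the first gene of its run, or by itself where it had none before it, 6 of 112 (5.36%) had a called summit against 1.23% of all genes treated alike, and 53 (47.3%) had a pooled one against 23.0%. Regions in both replicates were then found for 50 members (44.6%, all genes treated alike 19.5%), and 8 (7.14%, all genes treated alike 1.74%) ranked within the strongest 1000 of both. Counted this way, a pooled region was found for 47.6% of the respiratory chain and 47.1% of the mitoribosome members, and regions in both replicates for 38.1% and 48.6%. At high ranks the groups still differed by count. A called summit was found for 5 respiratory chain (11.9%) and 1 mitoribosome member (1.43%). Within the strongest 1000 of both replicates ranked 7 (16.7%) and 1 (1.43%). How much of this belongs to the neighbouring genes, several of which are cytosolic ribosomal protein or proteasome genes, was not tested.

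Other genes of mitochondrial function were counted in the same windows. Of all genes, 21.2% had a pooled region and 0.991% a called summit. Of 18 pyruvate dehydrogenase and TCA cycle genes 13 (72.2%) had a pooled region and 2 a called one, dld-1 and idhg-1, which encode subunits of matrix dehydrogenases. Of 15 protein import genes 9 had a pooled region and 2 a called one, the receptor gene tomm-20 and ddp-1. Of 12 genes of the mitochondrial stress response and proteostasis 6 had a pooled region and hsp-60, a matrix chaperonin gene, a called one. Fewer pooled regions were found at coenzyme Q synthesis genes (1 of 8, 12.5%) and fission, fusion and mitophagy genes (1 of 9, 11.1%). Genes of superoxide dismutases, catalases and the thioredoxin system had them at 2 of 11 (18.2%). Pooled regions were listed at 4 of 9 carrier genes, 4 of 12 genes for mitochondrial DNA upkeep, transcription and translation, and 2 of 4 further assembly factors. None of these 3 lists had a called summit, which at these sizes cannot be told from the share of all genes. The pooled share of the members, 39.3%, thus lay between these lists.

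Housekeeping genes outside the mitochondrion had higher shares in their own windows. Cytosolic ribosomal protein genes had a called summit at 13 of 81 (16.0%), a pooled region at 50 (61.7%) and a rank within the strongest 1000 of both replicates at 21, while 9 of the 81 (11.1%) lay behind another gene. Translation factor and aminoacyl-tRNA synthetase genes had a called summit at 4 of 57 and a pooled region at 29 (50.9%), and chaperonin, prefoldin and proteasome genes at 4 of 47 and at 20 (42.6%). In their own windows the 112 members had the lowest shares of these sets at both levels, with 1.79% and 39.3%. With the first gene of each run in place of the gene, this order changed. Pooled shares were then 47.3% for members, 66.7% for cytosolic ribosomal protein genes, 52.6% for translation genes and 36.2% for chaperonin, prefoldin and proteasome genes. Called shares were 5.36%, 16.0%, 5.26% and 8.51% in the same order. These differences were not tested.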

How the data were processed

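Lists of 1 group with 2 replicates were used, on ce11. The authors deposited them in a layout of 10 columns. Per the deposited descriptions, both replicate lists were made against a common further file, the pooled list from both replicates, and the called list from those 3 by the irreproducible discovery rate. The signal value per region is a score of unstated scale that the authors deposited, and it served for ranks inside each list. The deposited -log10 q-value, 2.87 for every called peak, served as a limit in the pooled list alone. The summit comes from the deposited offset. No aligner or peak caller is given in the sources used here. Depth is unknown, so no interval was computed.

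Genes and 5′ ends came from Ensembl release 115 on WBcel235, and sequence from the RefSeq copy of that assembly. The members and lists were chosen with earlier results of these data known, so no test was made, and the main counts stand beside the same over all nuclear protein-coding genes. Named members were those with a called summit, the 3 with the highest pooled rank per role, gas-1, mev-1, isp-1 and lpd-5, those within the strongest 1000 of both replicates, and those at the window limits. Members named beyond this rule, such as cox-4, atp-4 and those named for the gene before them, were chosen after their values were seen. Alternatives were other windows, 5′ ends and rank limits, and each replicate left out. Assignment of summits was tested on simulated data, where 200 of 200 planted summits were placed correctly (Python 3.11.15, pandas 2.3.3). The ce10 lists were not used.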

Additional observations from a re-analysis of the deposited data

How the results depend on the processing

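Of 43 alternatives over 5 results, 32 stayed within 1.5 times the count given, or within 1 SD of the replicates' medians (13.9 percentage points). That SD comes from the 2 replicates' own medians, 21.4% and 41.0%. It is a wide limit, so a median rank within it says little. The count of members with a called summit, 2, was 4 with a window of 2000 bp upstream, where 1.34% of all genes had one. It was 1 with only the called peaks above their median signal value. Without either replicate it was 2, with as many top regions of the remaining replicate used in place of called peaks. The shares of all genes were then 0.981% without replicate 1 and 0.976% without replicate 2. The count with a pooled summit, 44, was 29 when members close behind a same-strand gene were left out, which is 42.6% of the 68 kept against 39.3% of 112. Of all genes not so placed 21.1% had a pooled summit. With windows of 500 and 2000 bp upstream the members' pooled shares were 32.1% and 48.2%, against 15.2% and 29.4% of all genes. The count with a region in both replicates, 37, was 13 within the strongest 10000 of each list, a limit without a share of all genes to set beside it. The count within the strongest 1000 of both replicates, 3, was 5 with the wider window and 5 within the strongest 2000, again without shares of all genes. It was 7 without replicate 1 (all genes 2.65%) and 7 without replicate 2 (all genes 2.83%). The median pooled rank, 22.2% of the list, was 21.4% to 41.0% in the single replicates. With the first gene of the run in place of the member, an alternative chosen after seeing the data, the called count was 6 and the count within the strongest 1000 of both was 8. The windows and rank limits admit more or fewer regions by construction, and the cause of the difference between the replicates' medians was not tested. No paired analysis was possible because there is 1 group. Without depth or a control, regions of low rank cannot be told apart from background.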

Other observations

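All 4 members on the X chromosome, ucr-2.1, ucr-2.2, sdha-1 and gas-1, had a pooled region, against 20.1% of all genes on that chromosome. A region in both replicates was found at 3 of the 4 (all genes there 16.4%), and summits of the replicates within 200 bp at 2 (all genes there 11.5%). None of the 4 ranked within the strongest 1000 pooled regions (all genes there 2.78%). On the autosomes the members with a pooled region ranged from 5 of 15 on chromosome V (33.3%, all genes there 17.4%) to 13 of 32 on chromosome III (40.6%, all genes there 27.2%). All genes show the same order of these 2 chromosomes. The counts are small and were not tested.

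Within 5000 bp of the 5′ end in either direction, 12 members (10.7%) had a called summit against 3.09% of all genes, and the median distance to the nearest called summit was 105712 bp against 134586 bp. Besides those in the window or at the first gene of a run, the 12 included cox-10 (-1896 bp), mrps-6 (+2390 bp), nuo-4 (+2958 bp), mev-1 (+3347 bp), cox-4 (-4221 bp) and sdha-1 (-4329 bp), named after their values were seen. Of these, mrps-6 lay by a called peak of rank 75, and mev-1 and sdha-1 by peaks of ranks 318 and 313, at the end of the called list.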
